A study of Mus musculus with 5 samples.

Results

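Mesothelial cells of the mouse lung were followed at stage E18.5 in 5 single-cell RNA libraries, 1 library for the dissociated whole lungs of each embryo. Per the labels, 2 embryos were Zswim8+/- (Het1 and Het2) and 3 were Zswim8-/- (KO1, KO2 and KO3), and there was no wild-type group, so every comparison sets homozygous against heterozygous loss of Zswim8. The labels state neither the allele nor a cell-type driver. The lungs were digested with collagenase, and red cells were lysed before the droplet 3′ libraries were made. Cells were chosen by measured values. A barcode counted as mesothelial when it had at least 500 genes, at most 15% mitochondrial unique molecular identifiers (UMIs), a UMI in at least 2 of the 4 genes Upk3b, Wt1, Msln and Lrrn4 (the rule genes). It also had 0 UMIs of Ptprc, Cdh5, Pecam1 and Nkx2-1, the excluded genes, which mark leukocytes, endothelium and lung epithelium. This rule took 223 of the 19491 barcodes that passed the first 2 filters: 31, 64, 47, 48 and 33 in Het1, Het2, KO1, KO2 and KO3. The levels of these 8 genes are therefore described below without a test.

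The mesothelium is the flat, keratin-bearing cell layer that covers the lung surface and secretes the fluid in which the lung slides. In the fetal lung it is also a source of growth signals: Fgf9 from the mesothelium acts on the mesenchyme below, Aldh1a2 makes retinoic acid there, and hedgehog ligand from the epithelium is received by cells that express Ptch1, Gli1 and Hhip. Wt1 encodes a transcription factor of mesothelium, Msln (mesothelin) and Upk3b (uroplakin 3B) encode surface proteins, and Lrrn4 a leucine-rich repeat membrane protein.

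Zswim8 encodes the substrate adaptor of a cullin-RING ubiquitin ligase that destroys Argonaute when its microRNA is paired to a trigger transcript with extended complementarity, a process called target-directed microRNA degradation. MicroRNAs of the miR-15/16 family that lie in the Mir322 and Mir503 locus, and miR-7, whose trigger is the long noncoding RNA Cyrano (Oip5os1), are known substrates. Mature microRNAs are not captured by 3′ counts of polyadenylated RNA, so these libraries show only their hosts, triggers and possible targets. The RefSeq sequences (build GRCm38.p6) of 5 mature microRNAs are shown. The first 4 are of the family whose listed targets are counted further on, and the last pairs with Oip5os1. That target list was set by gene name and not drawn from these sequences. Capitals mark bases 2 to 8 (the seed).
miR-322-5p: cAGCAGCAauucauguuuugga
miR-16-5p: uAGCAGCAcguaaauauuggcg
miR-15b-5p: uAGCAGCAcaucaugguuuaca
miR-503-5p: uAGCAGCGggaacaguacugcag
miR-7a-5p: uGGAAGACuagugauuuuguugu
The seed is identical in miR-322-5p, miR-16-5p and miR-15b-5p. The seed of miR-503-5p differs from it in its last seed base, and miR-7a-5p has another seed.

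The libraries held 56608582 to 93708304 UMIs in all, and the mesothelial barcodes held 570052, 1764879, 1317738, 1204953 and 850340 UMIs in the order Het1, Het2, KO1, KO2 and KO3. Their depth had medians by library of 12995 to 18876 UMIs per member. In each library the 5 deepest members held 22.8 to 49.01% of the member UMIs. No member barcode occurred in more than 1 library, and 0 to 7 of the kept barcodes were shared by any pair. KO1 and KO2 carried Xist (1106 and 1199 unscaled CPM, at most 0.304 in the other 3 libraries), so the females are all in the KO group. Zswim8 (ENSMUSG00000021819, chr14:20707552-20723619, plus strand) was at 37.8 CPM in Het1, 54.5 in Het2, 63.96 in KO1, 68.5 in KO2 and 55.9 in KO3 in the mesothelial sums (log2 fold change 0.39, SE 0.23, edgeR adjusted p 0.743; CPM is counts scaled by the total and the TMM factor of each library's sum, and unscaled CPM by the total alone). All 3 KO libraries were above both Het libraries, and 3′ counts cannot tell an intact from a truncated message. Every direction below therefore rests on the labels.

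The cell type was checked with 16 mesothelial genes that the rule did not use. In members with all 4 rule genes, 100% of barcodes had a UMI of Krt19 (a keratin of simple epithelia), 99.3% of Gpm6a (a membrane glycoprotein), 98.6% of Upk1b (a uroplakin), 98.6% of Aldh1a2 and 91.7% of Muc16 (a surface mucin). Lower in the same barcodes were Fgf9 with a UMI in 72.2%, Bnc1 in 71.5% and Crb2 in 50%. Fibroblast-like barcodes, which had UMIs of at least 2 of Tcf21, Wnt2, Pdgfra and Col13a1, gave 1.41% for Upk1b and 0.498% for Muc16. Epithelial barcodes, which had at least 2 of Nkx2-1, Epcam, Cdh1 and Cldn18, gave 0.513% and 0%. Both comparison populations were also required to have 0 UMIs of the rule genes. Median depth by library was 12995 to 18876 UMIs per barcode in all members and 15606 to 23033 in those with all 4 rule genes. It was 10220 to 11984 in fibroblast-like and 5084 to 12746 in epithelial barcodes. The 16 genes together made 6905 to 9869 unscaled CPM in members by library. They made at most 528 in fibroblast-like, 647 in epithelial and 114 in red-cell barcodes. Not every gene set the cells apart: Nkain4 (a sodium pump interactor) had a UMI in 55.02% and Rarres2 (chemerin) in 81.7% of fibroblast-like barcodes. Krt19 and Krt7, keratins that epithelium shares, had one in 72.9% and 44.1% of epithelial barcodes.

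**Figure D1:**
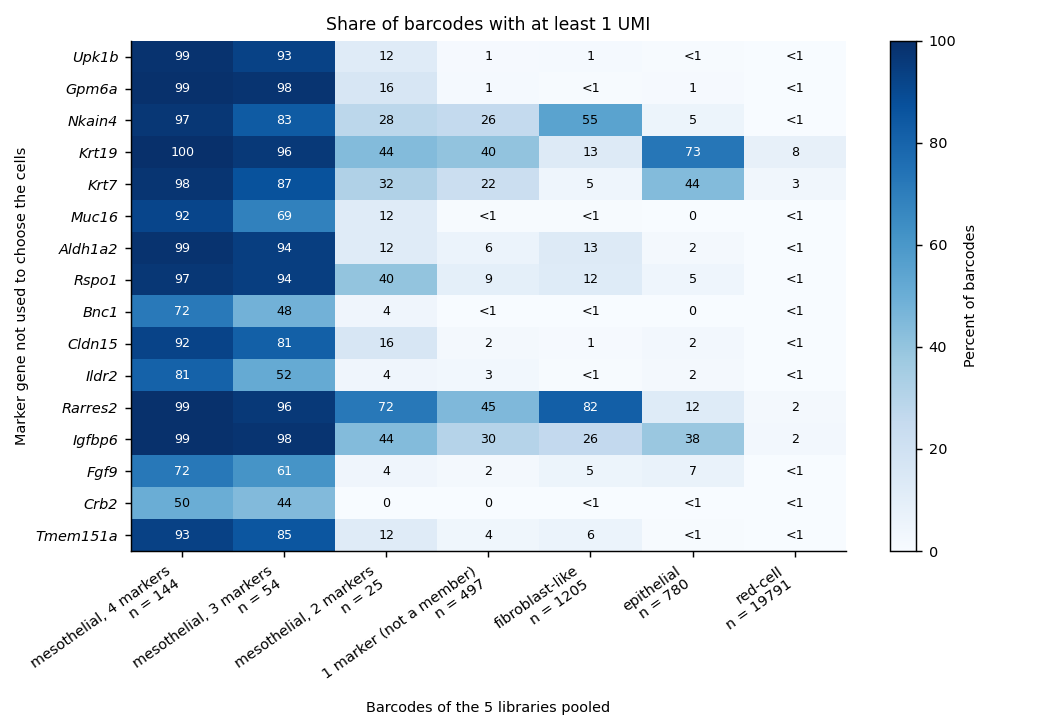
Percent of barcodes with at least 1 UMI (columns: groups of barcodes with their number; rows: 16 mesothelial genes not used by the rule), pooled over the 5 libraries. Members with 3 or 4 rule genes carry most of the 16 genes in most barcodes, whereas Upk1b and Muc16 were each found in 12% of the members with exactly 2, and in 1.01% and 0.604% of the barcodes with 1 rule gene.

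The label held less well at the edge of the rule. Of the 223 members, 144 had all 4 rule genes, 54 had 3 and 25 had exactly 2. Members with exactly 2 had a UMI of Upk1b in 12%, of Gpm6a in 16% and of Aldh1a2 in 12% of barcodes, and their 16 genes summed to 594 to 3248 unscaled CPM. The 497 barcodes with 1 rule gene, just outside, gave 1.01%, 1.21% and 6.04%, and 569 to 1059 unscaled CPM. A further 257 barcodes had at least 2 rule genes and a UMI of an excluded gene, with 2390.2 to 4205 unscaled CPM for the 16 genes and a higher median depth (31129 to 52569.5 UMIs by library). Among the rule genes, Upk3b was at 1651 and 1403 CPM in the Het libraries against 1611, 1620.4 and 2277 in the KO libraries, and Lrrn4 at 354 and 433 CPM in the Het libraries against 341, 273 and 404 in the KO libraries. Msln was at 1194 and 793 CPM in the Het libraries against 487, 352 and 811 in the KO libraries. Wt1 was at 388 and 426 CPM in the Het libraries against 357, 310.05 and 273 in the KO libraries. The groups overlapped for Upk3b, Lrrn4 and Msln, and Wt1 was lower in all 3 KO libraries.

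Mesothelial cells were a small share of every library and no difference between the genotypes was detectable. Of kept barcodes they made 0.643% in Het1, 1.52% in Het2, 1.502% in KO1, 1.44% in KO2 and 0.822% in KO3. Exact 95% binomial intervals, which cover counting error only, ran from 0.437% to 0.912% in Het1 and from 1.17% to 1.94% in Het2. The groups overlapped, since Het1 had the lowest and Het2 the highest share. The Het mean was 1.08% ± 0.622 (SD, n = 2) and the KO mean 1.26% ± 0.377 (SD, n = 3). The difference was 0.173 percentage points (two-sided exact permutation p = 0.7, where the smallest possible p is 0.1). Each barcode was also thinned to 3000 UMIs, leaving out 610, 422, 590, 306 and 339 shallower barcodes. The rule was applied anew to the thinned counts, so barcodes that lost their UMIs of excluded genes could enter. Members then numbered 38, 66, 60, 53 and 61, and the means were 1.32% for Het and 1.93% for KO (exact permutation p = 0.4). Without thinning, the difference was -0.266 percentage points with Het1 left out. Over barcodes with 0 UMIs of Ptprc it was -0.00882. These shares are of dissociated cells after red-cell lysis, and how many mesothelial cells each lung released was not measured.

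The mesothelial UMIs of each library were then summed and the genotypes compared gene by gene. With edgeR, 9715 genes were tested and 0 had an adjusted p under 0.05 (0% called). At an unadjusted p under 0.05 there were 728, 7.49% of genes: 3.63% higher and 3.86% lower in KO. DESeq2 called 9, of which 2 were higher in KO (0.0926% of genes). The Het and KO libraries did not overlap for 23.7% of the genes, 12% with all KO libraries higher and 11.6% with all lower, and gene counts below are to be read against these shares. In bulk sums of this kind, fewer cells of a kind and less RNA per cell cannot be told apart. The count of 0 calls depended on Het1. Without it the count was 243 (86 higher), with Het2 the lone Het library and assumed to vary like the KO libraries. Without Het2, where Het1 is the lone one, the count was 4. The genes given below as nearest the threshold, 6 in each direction, are therefore reported as values that did not pass.

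Genes of hedgehog reception and response were higher in the KO libraries for the receptor Ptch1, which hedgehog signalling itself induces, and for the transcription factor Gli1. Ptch1 (ENSMUSG00000021466, chr13:63508328-63573598, minus strand) was at 124 CPM in Het1, 70.2 in Het2, 212 in KO1, 204 in KO2 and 234 in KO3. All 3 KO libraries lay above both Het libraries, and Het2 was the lowest. The group means were 96.9 ± 37.8 CPM (SD, n = 2) for Het and 217 ± 15.7 CPM (SD, n = 3) for KO (log2 fold change 1.22, SE 0.23, edgeR adjusted p 0.112). DESeq2 called it (adjusted p 0.0424), and its log2 fold change was 0.81 to 1.62 with each library left out. Gli1 (ENSMUSG00000025407, chr10:127329882-127341974, minus strand) was at 27.5 CPM in Het1, 15.1 in Het2, 49.6 in KO1, 35.9 in KO2 and 66.6 in KO3 (log2 fold change 1.37, SE 0.34, edgeR adjusted p 0.274). Smo, the signal transducer that Ptch1 holds back, was at 115 CPM in Het1, 122 in Het2, 154 in KO1, 161 in KO2 and 187 in KO3 (log2 fold change 0.49, SE 0.18). The groups did not overlap for either gene. Hhip, a hedgehog-binding antagonist, was at 1208 CPM in Het1, 402 in Het2, 955 in KO1, 1019 in KO2 and 1064 in KO3, low in Het2 alone. Cdon, a co-receptor, was lower in all 3 KO libraries, at 137 CPM in Het1, 169 in Het2, 117 in KO1, 81.9 in KO2 and 126 in KO3 (log2 fold change -0.53, SE 0.21). The co-receptor Gas1 was also lower in all 3 (log2 fold change -0.19, SE 0.17). Of the 10 listed genes, all were tested and 0 called. The groups did not overlap for 3 with KO higher and 2 with KO lower. The median log2 fold change was 0.37, and that of all genes tested was 0.00273. The list's median was 0.11 with the members marked by 3 genes, described below, left out, and 0.09 with members capped at 10000 UMIs.

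The RefSeq promoter of Ptch1, from 250 bases before to 50 after the start RefSeq gives (chr13:63565686-63565985, minus strand, build GRCm38.p6), is printed 5′ to 3′ because Ptch1 and Gli1 were higher together. It was searched on both strands for the GLI binding core GACCACCCA, the GC box GGGCGG and the TATA motif TATAAA, and capitals mark the matches.
Ptch1: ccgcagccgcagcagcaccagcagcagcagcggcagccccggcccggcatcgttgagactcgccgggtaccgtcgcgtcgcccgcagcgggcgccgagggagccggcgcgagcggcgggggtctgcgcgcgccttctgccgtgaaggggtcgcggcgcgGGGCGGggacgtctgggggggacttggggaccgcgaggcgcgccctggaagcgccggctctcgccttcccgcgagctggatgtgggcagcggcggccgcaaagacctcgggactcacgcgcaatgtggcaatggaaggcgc
It held 1 GC box and no match to the other motifs, and its GC content was 76.3% against a median of 52.7% over 32851 promoter windows. Of all windows, 0.253% held the GLI core, 35.7% the GC box and 13.6% the TATA motif. The absence of a match says only that these letters are not in this window.

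Several secreted growth factors were higher in all 3 KO libraries. Fgf9 (ENSMUSG00000021974, chr14:58070547-58112720, plus strand), a fibroblast growth factor that the mesothelium is known to make, was at 65.2 CPM in Het1, 39.4 in Het2, 117 in KO1, 104 in KO2 and 116 in KO3. The lowest KO library was above the higher Het library, Het1. The means were 52.3 ± 18.2 CPM (SD, n = 2) for Het and 112 ± 7.49 CPM (SD, n = 3) for KO (log2 fold change 1.19, SE 0.23, edgeR adjusted p 0.112). Fgf18, a relative that acts on skeletal and lung mesenchyme, was at 34.3 CPM in Het1, 21.5 in Het2, 67.96 in KO1, 50.98 in KO2 and 66.6 in KO3 (log2 fold change 1.25, SE 0.27, edgeR adjusted p 0.163). Bmp3 (ENSMUSG00000029335, chr5:98854415-98884396, plus strand), a member of the bone morphogenetic protein family that opposes other members, was at 25.7 CPM in Het1, 21.5 in Het2, 64.8 in KO1, 61.8 in KO2 and 62.99 in KO3 (log2 fold change 1.46, SE 0.24, edgeR adjusted p 0.0952). In KO1 1 member held 31 of the 81 Bmp3 UMIs, and in Het2 1 held 10 of 37. Bmp3 was the gene of the higher direction with the smallest unadjusted p.

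Among transforming growth factor genes, Tgfb2 was at 252 CPM in Het1, 153 in Het2, 358 in KO1, 321 in KO2 and 377 in KO3 (log2 fold change 0.82, SE 0.22). Tgfb3 was at 137 and 84.1 CPM in the Het libraries against 150.3, 165 and 203 in the KO libraries (log2 fold change 0.69, SE 0.23). Both were higher in all KO libraries, and Tgfb1 overlapped (log2 fold change -0.16). Rspo1, an enhancer of Wnt signalling, was at 372 and 303 CPM in the Het libraries against 491, 439.6 and 567 in the KO libraries (log2 fold change 0.57, SE 0.19). Fgf2 was also higher without overlap (log2 fold change 0.64, SE 0.29). Lower in all 3 KO libraries was Vegfa, the vascular growth factor, at 44.6 CPM in Het1, 33.1 in Het2, 24.8 in KO1, 26.7 in KO2 and 15.5 in KO3 (log2 fold change -0.72, SE 0.30). Wnt4 was high in Het2 alone, at 15.4 CPM in Het1, 55.7 in Het2, 15.99 in KO1, 10.03 in KO2 and 9.51 in KO3. Of the 24 listed ligands, 19 were tested and 0 called. Bmp3 is not among them. Of those tested, 6 did not overlap with KO higher and 1 with KO lower. Their median log2 fold change was 0.25 (0.31 without Het1 and 0.32 without Het2).

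The Fgf9 promoter window (chr14:58072436-58072735, plus strand, build GRCm38.p6, RefSeq) is printed 5′ to 3′ beside that of Ptch1, since Fgf9 is the ligand whose difference also separated mesothelial from fibroblast-like sums below.
Fgf9: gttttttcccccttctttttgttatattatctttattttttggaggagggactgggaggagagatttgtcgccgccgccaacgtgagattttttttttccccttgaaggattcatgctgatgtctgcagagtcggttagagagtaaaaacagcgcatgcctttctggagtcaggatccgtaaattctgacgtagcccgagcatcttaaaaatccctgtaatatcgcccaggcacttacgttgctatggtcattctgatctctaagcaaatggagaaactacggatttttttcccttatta
None of the 3 motifs searched occurred in it, and its GC content was 42.7%.

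**Figure D2:**
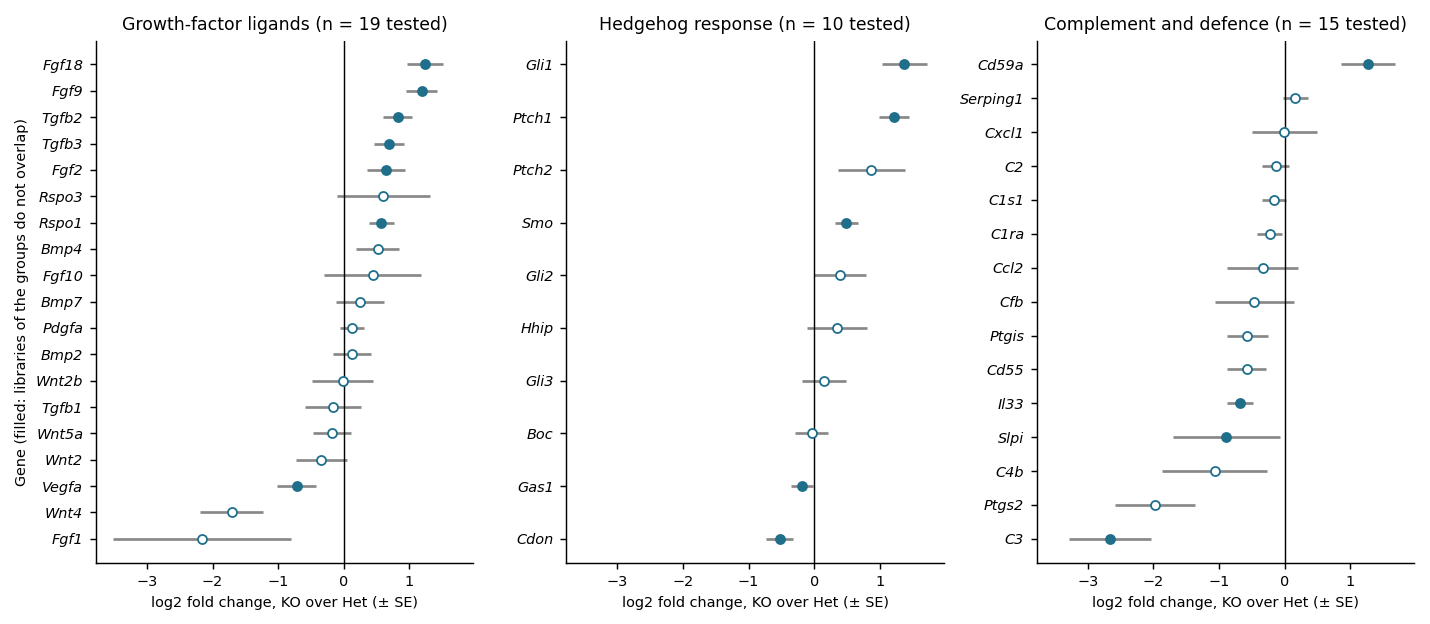
Log2 fold changes of the mesothelial sums, KO over Het, with standard errors (x axis) for each tested gene (y axis) of the growth-factor, hedgehog and complement lists; filled points are genes whose Het and KO libraries do not overlap. Fgf18, Fgf9, Gli1, Ptch1 and, in the complement list, Cd59a lie above 1 on the log2 scale. C3 lies lowest in its list at -2.66. None of the plotted genes passed the adjusted threshold.

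Complement and defence genes lay mostly on the lower side in KO. C3 (ENSMUSG00000024164, chr17:57203970-57228136, minus strand), the central complement protein, was at 1157 CPM in Het1, 681 in Het2, 105 in KO1, 78.6 in KO2 and 258 in KO3. Each KO library was below the lower Het library, and the KO libraries ranged from 78.6 to 258 CPM. The means were 919 ± 336 CPM (SD, n = 2) for Het and 147 ± 96.9 CPM (SD, n = 3) for KO (log2 fold change -2.66, SE 0.62, edgeR adjusted p 0.472). A C3 UMI was found in 90.3% and 81.2% in the Het libraries against 40.4%, 31.2% and 60.6% in the KO libraries of the members. After thinning members to 3000 UMIs it was found in 73.3% and 63.9% in the Het libraries against 15.6%, 6.38% and 42.4% in the KO libraries. Red-cell barcodes, over 50% haemoglobin and under 500 genes, held 0.00453 to 0.017 C3 UMIs each against 1.96 to 21.7 per member. The alarmin Il33 was at 94.4 CPM in Het1, 107 in Het2, 60.8 in KO1, 55.99 in KO2 and 74.9 in KO3 (log2 fold change -0.68, SE 0.20), without overlap. In the opposite direction, Cd59a, an inhibitor of the membrane attack complex, was at 8.58 CPM in Het1, 6.38 in Het2, 19.99 in KO1, 15.9 in KO2 and 15.5 in KO3 (log2 fold change 1.27, SE 0.41). Of the 19 listed genes 15 were tested, 0 were called and 13 had a negative sign. Of those tested, 3 did not overlap with KO lower and 1 with KO higher. Their median log2 fold change was -0.46 (-0.15 without Het1 and -0.51 without Het2). Immune genes (12 listed) summed to 159.8 to 184 unscaled CPM in Het and 62.2 to 127 in KO in the same members, and the part of other cells' RNA in the complement and stress values was not tested.

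Nr4a3, Hspa1b and Anxa1 were among the genes of the lower direction nearest the threshold. Nr4a3 (ENSMUSG00000028341, chr4:48045153-48086447, plus strand), an immediate-early nuclear receptor, was at 56.6 CPM in Het1, 63.8 in Het2, 19.99 in KO1, 20.9 in KO2 and 14.3 in KO3 (log2 fold change -1.70, SE 0.26, edgeR adjusted p 0.0952). It had the smallest unadjusted p of all 12 genes. In Het1, however, 1 member held 26 of the 33 UMIs, and in Het2 1 held 29 of 110. Hspa1b (ENSMUSG00000090877, chr17:34956436-34959238, minus strand), an inducible heat-shock chaperone with a near-identical neighbour Hspa1a, was at 56.6 CPM in Het1, 84.7 in Het2, 29.6 in KO1, 15.9 in KO2 and 14.3 in KO3 (log2 fold change -1.84, SE 0.31, edgeR adjusted p 0.0952). Reads of the 2 copies may be split uncertainly. Hspa1a was at 182 and 215 CPM in the Het libraries against 112, 41.8 and 83.2 in the KO libraries (log2 fold change -1.34, SE 0.36). The immediate-early genes Fos, Egr1 and Junb overlapped between the groups (log2 fold changes -0.05, -0.07 and -0.13). Anxa1 (ENSMUSG00000024659, chr19:20373428-20390944, minus strand), a phospholipid-binding protein that limits inflammation, was at 105 CPM in Het1, 185 in Het2, 55.2 in KO1, 36.8 in KO2 and 48.7 in KO3 (log2 fold change -1.67, SE 0.26, edgeR adjusted p 0.0952). DESeq2 called Anxa1 (adjusted p 0.00847) and Hspa1b (0.0479). Of 15 stress genes tested 0 were called, 6 did not overlap with KO lower and 0 with KO higher (median log2 fold change -0.21, -0.33 without Het1 and -0.25 without Het2).

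The other genes nearest the threshold belong to the cytoskeleton, adhesion and signalling. Myl9 (ENSMUSG00000067818, chr2:156775420-156781658, plus strand), a regulatory light chain of non-muscle and smooth-muscle myosin, was at 25.7 CPM in Het1, 26.7 in Het2, 57.6 in KO1, 76.05 in KO2 and 64.2 in KO3 (log2 fold change 1.32, SE 0.24, edgeR adjusted p 0.112). Tenm3 (ENSMUSG00000031561, chr8:48227682-48843951, minus strand), a teneurin adhesion protein, was at 58.4 CPM in Het1, 49.9 in Het2, 103 in KO1, 105 in KO2 and 132 in KO3 (log2 fold change 1.09, SE 0.21, edgeR adjusted p 0.112). Gnao1 (ENSMUSG00000031748, chr8:93809966-93969388, plus strand), a G protein alpha subunit, was at 12.01 CPM in Het1, 4.06 in Het2, 30.4 in KO1, 34.3 in KO2 and 41.6 in KO3 (log2 fold change 2.43, SE 0.43, edgeR adjusted p 0.0952). It rested on 7 UMIs in Het1 and 7 in Het2. Its log2 fold change was 1.53 to 3.07 with each library left out. Each of these 3 was higher in all KO libraries. Lower in all KO libraries was Tuba1c (ENSMUSG00000043091, chr15:99029891-99038110, plus strand), an alpha-tubulin with close paralogues, at 96.1 CPM in Het1, 108 in Het2, 51.2 in KO1, 55.99 in KO2 and 38.03 in KO3 (log2 fold change -1.07, SE 0.21, edgeR adjusted p 0.112). So was Cd44 (ENSMUSG00000005087, chr2:102811141-102901665, minus strand), the hyaluronan receptor, at 34.3 CPM in Het1, 64.9 in Het2, 11.2 in KO1, 15.04 in KO2 and 22.6 in KO3 (log2 fold change -1.73, SE 0.34, edgeR adjusted p 0.137). The long noncoding RNA 2900097C17Rik (ENSMUSG00000102869, chr2:156388065-156392979, minus strand) was at 124 CPM in Het1, 146 in Het2, 63.96 in KO1, 61.01 in KO2 and 72.5 in KO3 (log2 fold change -1.06, SE 0.19, edgeR adjusted p 0.0952).

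**Figure D3:**
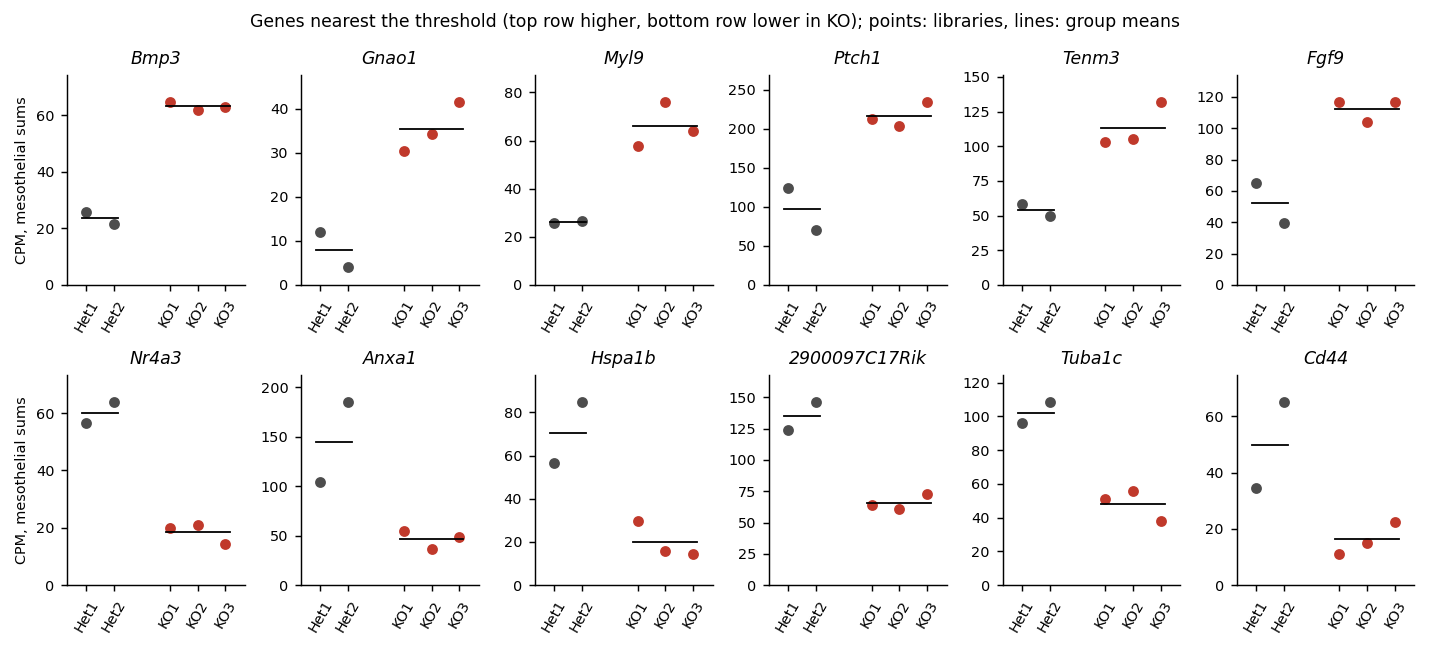
CPM (y axis, from 0) in the mesothelial sums of the 5 libraries (x axis) for the 6 genes of each direction with the smallest unadjusted p among those without overlap and with at least 30 CPM; lines are group means. In all 12 panels the Het points (grey) and KO points (red) are apart by selection, and none of the 12 passed an edgeR adjusted p of 0.05.

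None of the genes of mesothelial identity was called. The 16 marker genes had a median log2 fold change of 0.12 (-0.454 to 1.19; median 0.14 without Het1 and 0.08 without Het2). Without overlap, 3 were higher in KO (Fgf9, Rspo1 and the zinc finger gene Bnc1) and 2 were lower. Bnc1 was at 61.8 and 67.8 CPM in the Het libraries against 83.9, 71.03 and 95.1 in the KO libraries (log2 fold change 0.34, SE 0.21). Krt19 was the lower marker of larger size, at 1021 CPM in Het1, 978 in Het2, 716 in KO1, 651 in KO2 and 822 in KO3 (log2 fold change -0.45, SE 0.18). The other was Ildr2, a tricellular-junction protein (log2 fold change -0.36, SE 0.19). The groups overlapped for the other 11. Their log2 fold changes were -0.01 for Rarres2, -0.04 for Nkain4, 0.03 for Igfbp6, -0.11 for Tmem151a and -0.09 for the polarity gene Crb2. For Muc16 it was 0.24, for Upk1b 0.28, for Gpm6a 0.15, for Krt7 0.12, for Cldn15 0.12 and for Aldh1a2 0.39. Of 18 keratin and junction genes tested, 0 were called, 3 were lower without overlap (Krt19, Epcam and Jup) and 0 higher. Jup, plakoglobin, was at 63.5 and 84.7 CPM in the Het libraries against 55.96, 48.5 and 42.8 in the KO libraries (log2 fold change -0.62, SE 0.22), and the median log2 fold change of the list was -0.10 (-0.01 without Het1 and -0.26 without Het2).

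Retinoid and transport genes went both ways. Rdh10, which oxidises retinol, was at 49.8 CPM in Het1, 25.5 in Het2, 54.4 in KO1, 74.4 in KO2 and 67.7 in KO3 (log2 fold change 0.93, SE 0.29). Dhrs3, which reduces retinaldehyde back, was at 15.4 and 28.99 CPM in the Het libraries against 12.8, 10.9 and 10.7 in the KO libraries (log2 fold change -1.05, SE 0.36). Both were without overlap, in opposite directions. The receptors were apart as well, Rarb higher (log2 fold change 0.65, SE 0.49) and Rarg lower (log2 fold change -0.61, SE 0.28). The retinoic acid list had 10 of 16 genes tested, 0 called and a median log2 fold change of -0.004 (-0.03 without Het1 and 0.06 without Het2). The water channel Aqp1 was at 571 CPM in Het1, 426 in Het2, 708 in KO1, 592 in KO2 and 1069.7 in KO3 (log2 fold change 0.67, SE 0.26). The surface sialomucin Podxl was at 223 and 227 CPM in the Het libraries against 292, 279 and 321 in the KO libraries (log2 fold change 0.40, SE 0.17). Both were higher in all KO libraries. Atp1b1, a subunit of the sodium pump, was at 103 CPM in Het1, 166 in Het2, 80.7 in KO1, 51.8 in KO2 and 49.9 in KO3 and lower in all 3 (log2 fold change -1.17, SE 0.26). The transport list had 11 of 16 genes tested, 0 called and a median of -0.02 (0.22 without Het1 and -0.04 without Het2).

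Among matrix genes, Eln (elastin), Bgn and Lama4 were lower in all 3 KO libraries. Eln was at 2353 CPM in Het1, 1742 in Het2, 1309.6 in KO1, 1239 in KO2 and 1335 in KO3 (log2 fold change -0.66, SE 0.18, edgeR adjusted p 0.353). The small proteoglycan Bgn was at 396 and 324 CPM in the Het libraries against 193, 232 and 265 in the KO libraries (log2 fold change -0.64, SE 0.19). The laminin chain Lama4 was at 46.3 and 81.2 CPM in the Het libraries against 44.8, 20.9 and 36.8 in the KO libraries (log2 fold change -0.97, SE 0.33). Of 29 matrix genes tested 0 were called, 4 did not overlap with KO lower and 0 with KO higher, and the median was -0.12. Its sign depended on the libraries used: it was -0.32 without Het1 and 0.18 without Het2 and 0.02 without the members marked by 3 genes that are described below. Genes of mesothelial-to-mesenchymal transition had a median log2 fold change of -0.05 (0.04 without Het1 and 0.11 without Het2) over 19 tested, 0 called. There Tgfbr2, the type II receptor for transforming growth factor beta, was at 73.8 and 93.4 CPM in the Het libraries against 63.96, 50.98 and 60.6 in the KO libraries (log2 fold change -0.54, SE 0.21), lower in all 3 KO libraries. The transcription factor Zeb1 had a log2 fold change of -0.27 and Snai1 of 0.97. Several matrix genes stood out in 1 library only. Fn1, fibronectin, was at 117 CPM in Het1, 1116 in Het2, 186 in KO1, 96.1 in KO2 and 149 in KO3, with Het2 far above the other 4 libraries. Igfbp3, an insulin-like growth factor binding protein, was at 51.5 and 593 CPM in the Het libraries against 63.96, 46.8 and 96.3 in the KO libraries. Igfbp4 was at 60.1 and 734 CPM in the Het libraries against 150.3, 92.8 and 114 in the KO libraries. Het2 was again the highest for both.

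Members with RNA of the genes high in Het2 were unevenly spread over the libraries. Members with UMIs of at least 2 of Igfbp4, Fn1 and Fndc1 (genes chosen after their values were seen) numbered 3 of 31 in Het1, 41 of 64 in Het2, 23 of 47 in KO1, 12 of 48 in KO2 and 13 of 33 in KO3. After thinning to 3000 UMIs they were 10% and 62.3% in the Het libraries against 24.4%, 10.6% and 18.2% in the KO libraries. They held 76.2% of the mesothelial UMIs of Het2. Hhip ran the other way. Members with a UMI of it were 83.3% and 27.9% in the Het libraries against 60%, 80.9% and 84.8% in the KO libraries after thinning. Before thinning they were 87.1% and 42.2% in the Het libraries against 65.96%, 85.4% and 87.9% in the KO libraries. Red-cell barcodes held at most 0.0147 Hhip UMIs each. In the marked members Hhip was at 913 and 30.5 unscaled CPM in the Het libraries against 615, 607 and 1021 in the KO libraries, and in the others at 1307 and 1553 unscaled CPM in the Het libraries against 1317, 1261 and 1092 in the KO libraries. Hhip was thus lower in the marked members of every library, and lowest in those of Het2. Fn1 in the marked members was at 538 and 1427 unscaled CPM in the Het libraries against 303, 242 and 254 in the KO libraries, also apart in Het2.

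Ptch1 and Gli1 were compared within both kinds of members. The mark was set on counts before thinning, which depend on depth. It was then on 9.68% and 64.1% of members in the Het libraries against 48.9%, 25% and 39.4% in the KO libraries. Median depth in marked members was 29428 and 25372 UMIs in Het against 15036, 27340 and 15355 in KO. In the other members it was 15135 and 15331 in Het against 12065, 16142 and 15040 in KO. The mark thus need not pick the same kind of cell in every library. In the members without the 3-gene mark, Ptch1 was at 124 and 231 unscaled CPM in the Het libraries against 296, 258 and 214 in the KO libraries, so that Het2 lay among the KO libraries and only Het1 was below. Gli1 there was at 34.3 and 59.6 unscaled CPM in the Het libraries against 52.9, 41.6 and 63.5 in the KO libraries and overlapped too. Fgf9 in the same members was at 79.4 and 76.2 unscaled CPM in the Het libraries against 120.4, 109 and 140.2 in the KO libraries, still without overlap, as was C3 at 1206 and 989 unscaled CPM in the Het libraries against 38.3, 115 and 267 in the KO libraries. In the marked members Ptch1 was at 135 and 17.8 unscaled CPM in the Het libraries against 134, 113 and 246 in the KO libraries. This was above the other members in Het1 and KO3 and below them in Het2, KO1 and KO2. Gli1 in the marked members was at 0 and 0.743 unscaled CPM in the Het libraries against 42.9, 26.1 and 67.8 in the KO libraries, and Fgf9 at 9.61 and 26.8 unscaled CPM in the Het libraries against 104, 93.6 and 95.3 in the KO libraries. The marked members of Het1 were 3 cells, and those of Het2, which hold most of its UMIs, had the lowest Ptch1 level of any library. With the marked members left out, the log2 fold change was 0.58 for Ptch1 (edgeR adjusted p 0.47) and 0.17 for Gli1 (0.964). It was 0.68 for Fgf9, 0.68 for Bmp3 and -3.01 for C3 (edgeR adjusted p 0.322, 0.592 and 0.497). That fit called 19 of 6443 genes (0.295%). Among them, with their log2 fold changes, were Eln (-1.002), Anxa1 (-1.38), Hspa1b (-1.83), Hspa1a (-1.48), 2900097C17Rik (-1.27), Tuba1c (-1.26), Bgn (-0.82) and Myl9 (1.62). Since the split was drawn after the values were seen, these calls are a description of how the comparison moves, not a separate result.

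**Figure D4:**
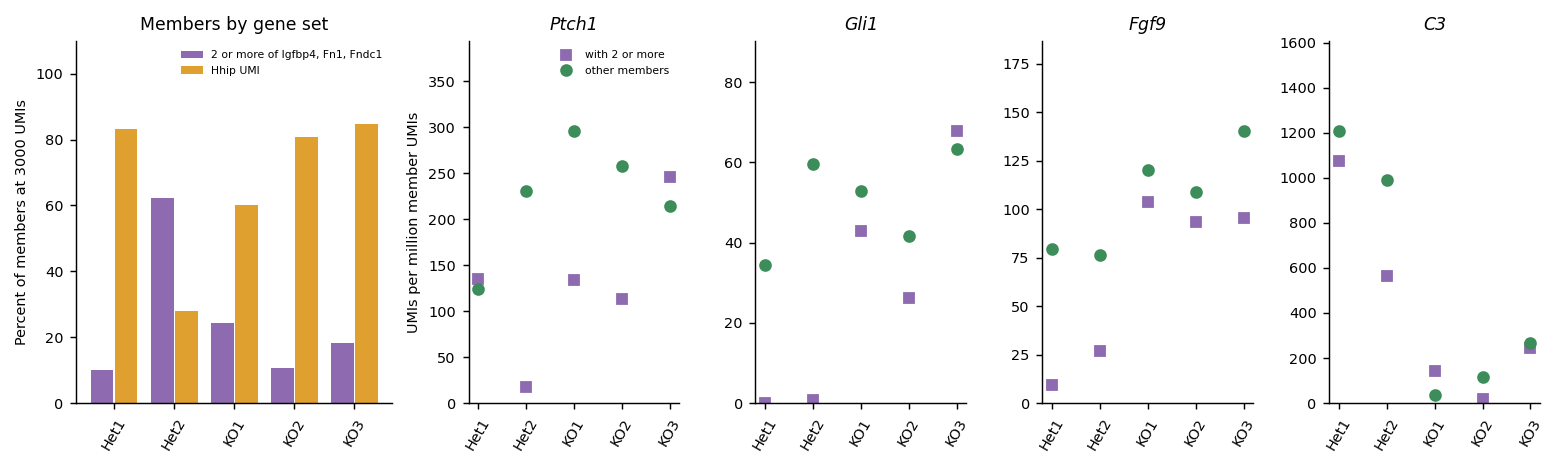
Left, percent of members (y axis) with UMIs of at least 2 of Igfbp4, Fn1 and Fndc1 and with a Hhip UMI, after thinning to 3000 UMIs, by library (x axis). Right, unscaled CPM (linear axes from 0) of Ptch1, Gli1, Fgf9 and C3 in the marked members (squares) and the others (circles): Het2 has most marked members, and among the others Ptch1 overlaps between Het and KO while C3 does not.

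Transcripts tied to microRNA decay were measurable in mesothelial cells. Oip5os1, the trigger that pairs with miR-7, was at 61.8 CPM in Het1, 72.5 in Het2, 35.98 in KO1, 45.1 in KO2 and 62.99 in KO3 (log2 fold change -0.53, SE 0.25). Nrep, whose transcript carries a site for miR-29, was at 769 and 482 CPM in the Het libraries against 479.7, 783 and 593 in the KO libraries (log2 fold change -0.01). Lrrc58, a trigger for miR-503, was at 99.5 and 131 CPM in the Het libraries against 112, 108 and 109 in the KO libraries (log2 fold change -0.10). All 3 triggers overlapped between the groups. Plagl1, an imprinted zinc-finger gene whose transcript is a trigger for miR-322, was at 628 CPM in Het1, 313 in Het2, 729 in KO1, 829 in KO2 and 805 in KO3 (log2 fold change 0.76, SE 0.26, edgeR adjusted p 0.503), higher in all 3 KO libraries with Het2 the lowest. H19, an imprinted noncoding RNA and the host of miR-675, was at 1991 CPM in Het1, 1933 in Het2, 3301 in KO1, 3105 in KO2 and 2697 in KO3 (log2 fold change 0.63, SE 0.18, edgeR adjusted p 0.368), also without overlap. C430049B03Rik, the host of miR-322 and miR-503, overlapped (log2 fold change -0.41). The list of 19 triggers and hosts, which does not include Plagl1, had 16 tested and 0 called. Without overlap, 2 were higher (H19 and Igf2) and 2 lower in KO. The median log2 fold change of the list was -0.20 (-0.27 without Het1 and -0.08 without Het2).

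Genes listed as targets of the miR-15/16 family, whose seeds are shown above, lay on both sides: 9 had a positive and 8 a negative log2 fold change. Of 20 listed targets 17 were tested and 0 called, 3 did not overlap with KO higher and 2 with KO lower. Their median log2 fold change was 0.01 (0.08 without Het1 and 0.13 without Het2). Bcl2, an inhibitor of apoptosis, was at 12.01 CPM in Het1, 8.70 in Het2, 19.2 in KO1, 31.8 in KO2 and 20.2 in KO3 (log2 fold change 1.28, SE 0.39). The cyclin Ccnd3 was at 216 and 259 CPM in the Het libraries against 271, 308 and 297 in the KO libraries (log2 fold change 0.29, SE 0.18). Both were higher without overlap. Other cell-cycle regulators of the list, Ccnd1, Cdk6, Cdc25a and Wee1, overlapped (log2 fold changes 0.07, 0.03, -0.22 and -0.34). Ago2, the Argonaute with slicing activity, was at 117 and 108 CPM in the Het libraries against 115, 103 and 111 in the KO libraries (log2 fold change -0.03), and Dicer1 had a log2 fold change of -0.06. The 15 Argonaute and processing genes tested had a median of -0.08 with 0 called.

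Imprinted growth genes had a median of 0.17 over 18 tested, with 0 called. Without overlap, 5 were higher in KO, H19, Plagl1, Cdkn1c and Igf2 among them, and 2 were lower. Cdkn1c, an imprinted inhibitor of cyclin-dependent kinases, was at 1109 CPM in Het1, 895 in Het2, 1243 in KO1, 1525 in KO2 and 1198 in KO3 (log2 fold change 0.40, SE 0.19). The growth factor gene Igf2 was at 1109 and 816 CPM in the Het libraries against 1201, 1123 and 1147 in the KO libraries (log2 fold change 0.27, SE 0.19). Of 14 insulin-like growth factor genes 4 did not overlap with KO higher, and 0 were called (median log2 fold change 0.06, 0.02 without Het1 and 0.40 without Het2). The RNA-binding genes Igf2bp1 (log2 fold change 0.70, SE 0.29) and Igf2bp2 (log2 fold change 0.43, SE 0.21) were among the former. Cell-cycle genes varied within both groups. Mki67, a marker of dividing cells, was at 65.2 CPM in Het1, 19.7 in Het2, 24.8 in KO1, 100.3 in KO2 and 16.6 in KO3, and the topoisomerase gene Top2a at 149 and 35.9 CPM in the Het libraries against 65.6, 169 and 17.8 in the KO libraries. Het1 and KO2 were high for both. Members with a UMI of either gene were 16.1% and 28.1% in the Het libraries against 23.4%, 31.2% and 27.3% in the KO libraries. The 22 cell-cycle genes had a median log2 fold change of 0.03 and 0 called. That median depended on the libraries used: it was 0.30 without Het1 and -0.51 without Het2, and -0.52 without the marked members. Without overlap, 2 were higher, including the kinase inhibitor Cdkn1b (log2 fold change 0.39, SE 0.23), and 4 lower, including the DNA synthesis enzyme Tyms (log2 fold change -0.84, SE 0.36).

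RNA of other cell types was present in the members. The immune sums given above and the epithelial sums (14 listed genes, 453 to 728 unscaled CPM in Het and 236 to 399.9 in KO) did not overlap between the groups. Endothelial genes (11 listed) summed to 167 to 241 unscaled CPM in Het and 162 to 215 in KO, and mesenchymal genes (14 listed) to 304 to 525 unscaled CPM in Het and 270.2 to 515 in KO. Erythroid genes (9 listed) summed to 5368 to 14606 unscaled CPM in Het and 4151 to 5872 in KO. These 3 overlapped. No gene of these lists was at 0 over all members. Lyz2, a lysozyme of myeloid cells, was at 41.2 CPM in Het1, 34.2 in Het2, 6.40 in KO1, 15.04 in KO2 and 16.6 in KO3 (log2 fold change -1.57, SE 0.37). Red-cell barcodes of the same libraries held 0.301 and 0.251 Lyz2 UMIs each in the Het libraries against 0.128, 0.143 and 0.226 in the KO libraries. Members held 0.774 and 0.922 each in the Het libraries against 0.17, 0.375 and 0.424 in the KO libraries. S100a8, a neutrophil gene, had 0.539 and 0.429 UMIs per red-cell barcode in the Het libraries against 0.147, 0.203 and 0.2 in the KO libraries. Members held 0.839 and 0.641 each in the Het libraries against 0.234, 0.25 and 0.394 in the KO libraries. For both genes the Het libraries were the higher in red-cell barcodes and in members. Scgb1a1, a club-cell secretoglobin, was at 58.4 and 124 CPM in the Het libraries against 23.98, 5.85 and 32.1 in the KO libraries, and 1 Het2 member held 158 of 214 UMIs. Ager, of alveolar type 1 cells, was at 115 and 16.8 CPM in the Het libraries against 11.99, 14.2 and 8.32 in the KO libraries, and 1 Het1 member held 49 of 67. For Ptch1, Fgf9 and Bmp3 the red-cell barcodes held at most 0.012, 0.00161 and 0.00214 UMIs each, against at least 1.89, 1.06 and 0.484 per member.

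The genotype difference of mesothelial cells was set against that of fibroblast-like barcodes (1205 barcodes, 189 to 306 per library) in 1 fit with the library as a block. CPM in this and the next comparison are scaled over the sums of both populations. In fibroblast-like sums alone edgeR called 1.30% of genes. The genotype by cell type term passed an edgeR adjusted p of 0.05 for 8 of 11702 genes (0.0684%), 5 with a more positive difference in mesothelial cells, and 842 had an unadjusted p under 0.05. Fgf9 was at 60.9 CPM in Het1, 36.8 in Het2, 109 in KO1, 97.4 in KO2 and 109 in KO3 in mesothelial sums. In fibroblast-like sums it was at 8.34 and 16.2 CPM in the Het libraries against 3.50, 3.13 and 4.22 in the KO libraries (term 2.96, SE 0.45, edgeR adjusted p 0.0309). All KO libraries were higher in the former and lower in the latter. The fibroblast-like side rested on 8 to 37 UMIs per library. Ecrg4, which encodes a secreted peptide precursor, was at 327 and 219.7 CPM in the Het libraries against 290.3, 439.7 and 524 in the KO libraries in mesothelial sums. The fibroblast-like sums had 56.5 and 61.6 CPM in the Het libraries against 27.03, 29.3 and 27.5 in the KO libraries (term 1.70, SE 0.27, edgeR adjusted p 0.0388). The retinoic acid enzyme Aldh1a2 was at 721 and 423 CPM in the Het libraries against 616, 735 and 887 in the KO libraries in mesothelial sums. In fibroblast-like sums it was at 32.9 and 32.8 CPM in the Het libraries against 13.04, 19.2 and 17.95 in the KO libraries (term 1.42, SE 0.24, edgeR adjusted p 0.0378). For Ecrg4 and Aldh1a2 the mesothelial groups overlapped and the fibroblast-like levels were lower in all KO libraries.

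Il17d, a cytokine, was at 22.4 and 17.9 CPM in the Het libraries against 45.5, 43.97 and 38.9 in the KO libraries in mesothelial sums. The fibroblast-like sums had 43.5 and 37.6 CPM in the Het libraries against 23.5, 25.8 and 23.8 in the KO libraries (term 1.84, SE 0.30, edgeR adjusted p 0.0321). The groups were apart in both, in opposite directions. Tmem204, a membrane protein of junctions, was at 4.81 and 2.71 CPM in the Het libraries against 13.4, 21.2 and 17.8 in the KO libraries in mesothelial sums, from 3 and 5 UMIs in Het1 and Het2. In fibroblast-like sums it was at 87.1 and 79.9 CPM in the Het libraries against 63.6, 72.8 and 67.6 in the KO libraries (term 2.65, SE 0.44, edgeR adjusted p 0.0321). The 3 genes with a more negative difference in mesothelial cells were Trib1, Nr4a3 and Fabp3. Trib1, a pseudokinase that directs protein degradation, was at 163 and 233 CPM in the Het libraries against 116, 54.97 and 67.7 in the KO libraries in mesothelial sums. The fibroblast-like sums had 83.4 and 89.5 CPM in the Het libraries against 139, 103 and 74.7 in the KO libraries (term -1.62, SE 0.24, edgeR adjusted p 0.0227). Nr4a3 was at 52.9 and 59.5 CPM in the Het libraries against 18.7, 19.6 and 13.3 in the KO libraries in mesothelial sums. In fibroblast-like sums it was at 45.9 and 59.8 CPM in the Het libraries against 72.5, 58.3 and 42.2 in the KO libraries (term -1.82, SE 0.27, edgeR adjusted p 0.0227). Mesothelial levels of Trib1 and Nr4a3 were lower in all KO libraries and the fibroblast-like levels overlapped. For Nr4a3, 1 Het1 member held 26 of the 33 UMIs of that library. With members capped at 10000 UMIs neither term passed (edgeR adjusted p 0.695 and 0.221), and that of Trib1 was -0.93. Fabp3, a fatty acid binding protein, was at 17.6 and 69.8 CPM in the Het libraries against 32.8, 10.2 and 19.99 in the KO libraries in mesothelial sums. The fibroblast-like sums had 1.39 and 2.62 CPM in the Het libraries against 12.1, 5.48 and 15.3 in the KO libraries (term -3.45, SE 0.52, edgeR adjusted p 0.0227). Its mesothelial groups overlapped and its fibroblast-like level was higher in all KO libraries. DESeq2 called none of the terms (238 at an unadjusted p under 0.05). Without KO3, Trib1 alone of the 8 passed with edgeR (adjusted p 0.0479). Without Het2 none of the 8 passed with edgeR (adjusted p 0.177 to 0.636).

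**Figure D5:**
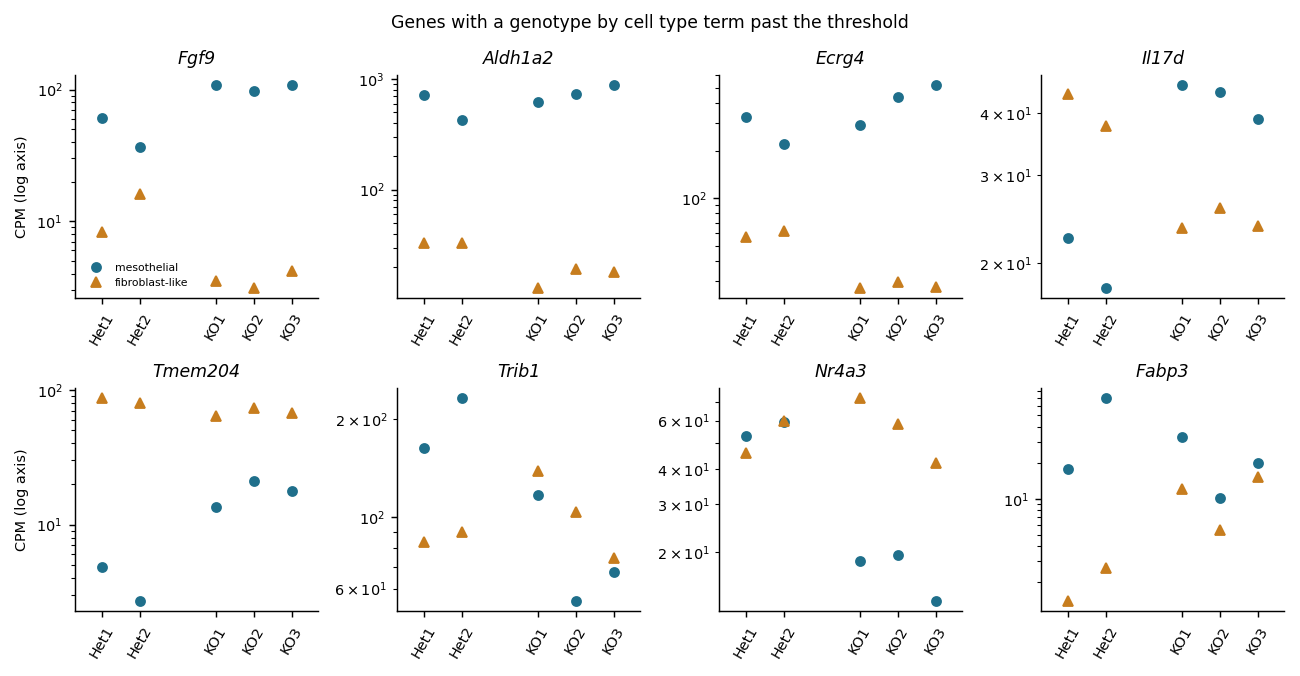
CPM (log axis) of the 8 genes with a called genotype by cell type term in mesothelial (circles) and fibroblast-like (triangles) sums of each library (x axis). Fgf9 and Il17d separate the genotypes in opposite directions in the 2 populations. Aldh1a2 and Ecrg4 overlap in mesothelial sums and are lower in KO in fibroblast-like sums. Nr4a3 is apart in mesothelial sums and overlaps in fibroblast-like sums. In Het1, 1 member held 26 of the 33 mesothelial Nr4a3 UMIs.

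Against epithelial barcodes (780 barcodes, 89 to 242 per library) the term was called for 8 of 11384 genes (0.0703%), 2 more positive in mesothelial cells. At an unadjusted p under 0.05 there were 1306, and in epithelial sums alone edgeR called 1.54% of genes. Vnn1, a pantetheinase, was at 20.5 and 18.001 CPM in the Het libraries against 39.3, 33.2 and 56.8 in the KO libraries in mesothelial sums. In epithelial sums it was at 96.5 and 63.9 CPM in the Het libraries against 21.97, 32.2 and 38.5 in the KO libraries (term 2.47, SE 0.33, edgeR adjusted p 0.0425). Hk2, a hexokinase of glycolysis, was at 22.04 and 31.1 CPM in the Het libraries against 60.1, 50.1 and 69.1 in the KO libraries in mesothelial sums. In epithelial sums it was at 105 and 145 CPM in the Het libraries against 92.1, 81.3 and 87.5 in the KO libraries (term 1.68, SE 0.26, edgeR adjusted p 0.0453). For both genes the mesothelial levels were higher and the epithelial levels lower in all KO libraries. Osr1, Fabp3 and Dcn, with negative terms, were higher in KO on the epithelial side and overlapped in mesothelial sums. Osr1, a transcription factor of mesoderm, was at 36.2 and 177 CPM in the Het libraries against 100.1, 45.5 and 41.2 in the KO libraries in mesothelial sums. In epithelial sums it was at 0.359 and 2.08 CPM in the Het libraries against 29.1, 3.39 and 8.75 in the KO libraries (term -4.10, SE 0.61, edgeR adjusted p 0.0453). The epithelial side rested on 1 and 4 UMIs in the Het libraries against 41, 4 and 15 in the KO libraries. With doublets left out its term was -5.09 and did not pass (edgeR adjusted p 0.0706). Fabp3 had a term of -3.69 (edgeR adjusted p 0.0453). Its epithelial side rested on 10 and 8 UMIs in the Het libraries against 52, 10 and 66 in the KO libraries. With members capped at 10000 UMIs the Fabp3 term did not pass (edgeR adjusted p 0.0775).

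The proteoglycan Dcn, a gene of mesenchyme, was at 998 and 2691 CPM in the Het libraries against 1585, 1023 and 1263 in the KO libraries in mesothelial sums. In epithelial sums it was at 25.5 and 45.7 CPM in the Het libraries against 206, 97.4 and 149 in the KO libraries (term -2.46, SE 0.23, edgeR adjusted p 0.00296). Dcn and Osr1 are genes of mesenchymal cells, and how far such RNA in the epithelial barcodes set these terms was not tested. The fibroblast-like and epithelial sets shared 1 and 2 barcodes in the Het libraries against 7, 2 and 4 in the KO libraries. Epithelial barcodes there numbered 242 and 176 in Het against 143, 89 and 130 in KO. Tubb5 and Gucy1a1 were also called and likewise had negative terms (-1.75 and -2.26). DESeq2 called 25 terms, all 8 among them, and without Het2 edgeR called 0 (968 at an unadjusted p under 0.05).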

How the data were processed

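Deposited UMI counts per gene and barcode (32285 genes) are as the authors left them after Cell Ranger 4.0.0 and build mm10, per the submitters' processing notes; the annotation and barcode filter are not given in the sources used here. Coordinates (GRCm38, counted from 1) came from GENCODE M21, which held 32158 of the IDs. Members were chosen by the marker rule in the report, with no clustering; doublets were kept, except in an alternative that removed the highest simulated-doublet scores at 0.8% per 1000 barcodes. The members and gene lists were chosen with earlier results of these data known. Counts were summed per library and compared with edgeR 4.0.16 (robust quasi-likelihood, TMM, filterByExpr, two-sided, Benjamini-Hochberg over all genes tested), and with DESeq2 1.42.0 as an alternative; SE is the absolute log2 fold change over the root of F. P-values measure the spread between embryos. The genotype by cell type fits added the library as a block. Named genes of the mesothelial sums had no overlap of the groups and 30 CPM or more as the mean of their higher side. Up to 12 called genes per direction were named, filled to 6 by smallest unadjusted p. In each genotype by cell type fit the 4 called genes with the largest terms per direction were named. These needed a group mean of 30 CPM or more in at least 1 cell type, and their groups could overlap. Rule, excluded, sex-linked, mitochondrial and haemoglobin genes were left out, and Aldh1a2, Tubb5 and Gucy1a1 were named beyond this rule, after their values were seen. Some genes that the rule or the lists would name are not reported here. The steps were tested on simulated data. Other alternatives were library size scaling, other count and cell filters, 3 of 4 markers, 1 excluded UMI allowed, cycling barcodes left out, a replicate block, a sex covariate and each library left out.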

Additional observations from a re-analysis of the deposited data

Results flagged for a closer look

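The genotype difference of the genes below passed an edgeR test of its difference between mesothelial cells and a comparison population. These calls depend on the tool and on Het2: DESeq2 called none of the terms against fibroblast-like sums, and without Het2 none of the genes below passed with edgeR in either fit. Against fibroblast-like sums the terms, on the log2 scale and named by the rule in the methods, were Trib1 (-1.62), Nr4a3 (-1.82), Fabp3 (-3.45), Fgf9 (2.96), Tmem204 (2.65), Il17d (1.84) and Ecrg4 (1.70). Against epithelial sums they were Dcn (-2.46), Vnn1 (2.47), Fabp3 (-3.69), Osr1 (-4.10) and Hk2 (1.68). Without Het2 the Fgf9 term was 1.97. The calls depended on the KO libraries as well. Without KO3, Trib1 alone of these passed against fibroblast-like sums (edgeR adjusted p 0.0479, the others 0.058 to 0.113). Against epithelial sums Dcn alone did (0.0299, the others 0.0763 to 0.0948). Without KO1, Fabp3 and Ecrg4 passed against fibroblast-like sums (both 0.0317, the others 0.0644 to 0.127). All of those named against epithelial sums passed without KO1 (0.00136 to 0.0414). Without KO2, Trib1, Nr4a3 and Fabp3 passed against fibroblast-like sums (edgeR adjusted p 0.0235 to 0.0245, the others 0.0524 to 0.0938). Against epithelial sums Fabp3 and Hk2 did not pass without KO2 (edgeR adjusted p 0.0951 and 0.106), and the others did. With members capped at 10000 UMIs, Fgf9 alone of these passed against fibroblast-like sums (edgeR adjusted p 0.0114, the others 0.0739 to 0.695). The Trib1 term was then -0.93. A positive term means a KO over Het difference that is more positive in mesothelial cells. Fabp3 was named in both fits, and its mesothelial levels overlapped between the groups. Its levels in the comparison populations rested on 3 to 10 UMIs in the Het libraries. Groups of 2 and 3 libraries are too small for a test of outlying samples.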

How the results depend on the processing

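The count of genes called in the mesothelial sums (0) became 9 with DESeq2, 211 with no low-count filter, 1 with up to 1 UMI of the excluded genes allowed, 1 with doublets left out, 5 with a replicate block (3 of them sex-linked) and 19 with the Igfbp4, Fn1 and Fndc1 members left out; it stayed 0 with library size alone, at least 20 UMIs, 3 of 4 markers, stricter cell filters, cycling members out, the sex covariate and members capped at 10000 UMIs. Leaving out 1 library gave 0 to 243. The count against fibroblast-like sums (8) was 0 with DESeq2, 135 with no filter, 0 with 1 excluded UMI allowed, 2 with stricter cell filters, 2 without doublets, 3 without cycling members, 3 with capped members, 19 without the Igfbp4, Fn1 and Fndc1 members and 2 to 130 with 1 library left out. The count against epithelial sums (8) was 25 with DESeq2, 529 with no filter, 3 at 20 UMIs or more, 26 with 3 of 4 markers, 4 with 1 excluded UMI allowed, 3 without cycling members, 2 with capped members, 24 without the Igfbp4, Fn1 and Fndc1 members and 0 to 122 with 1 library left out; library size alone moved the median of all its terms from -0.03 to -0.25. The causes were not tested. The difference in the share of mesothelial cells (0.17 percentage points) turned to -0.00882 over barcodes without Ptprc and was -0.27 to 0.61 with 1 library left out. Over the 13 named genes of the mesothelial sums, 199 of 233 values kept direction and call, 33 became calls and 1 reversed (Myl9, -0.27 with 1 excluded UMI allowed); of 192 values of the named terms, 98 lost the call and none reversed. Replicate numbers do not pair the embryos in the labels, and same-numbered libraries did not deviate together (correlations -0.07 and -0.16 for the 2 shared numbers). KO3 is alone with its number, so it does not enter the genotype term of the block fit. That term sets the male Het1 and Het2 against the female KO1 and KO2, and sex and genotype cannot be told apart in it. C3 was among its calls, and no conclusion is drawn from that. The capped members and the 3-gene split were chosen after seeing the data. With 31 to 64 members per library, a few deep cells and 2 Het libraries limit what can be detected.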

Other observations

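Of the 9 genes that DESeq2 called, 6 have not yet been described, and they were chosen after their values were seen. Mgp, an inhibitor of calcification made by many mesenchymal cells, was at 1924 and 2486 CPM in the Het libraries against 1246, 1171 and 1313 in the KO libraries (edgeR adjusted p 0.163, DESeq2 0.0408). Slurp1, a secreted Ly6-family protein, was at 165 and 84.7 CPM in the Het libraries against 25.6, 17.5 and 52.3 in the KO libraries (edgeR adjusted p 0.44, DESeq2 0.0171). Kcne1l, an X-linked potassium-channel subunit gene, was higher in KO, at 13.7 and 4.06 CPM in the Het libraries against 26.4, 49.3 and 52.3 in the KO libraries (edgeR adjusted p 0.163, DESeq2 0.0479); the male library KO3 was the highest. S100a14, an epithelial calcium-binding protein, was at 10.3 and 55.1 CPM in the Het libraries against 1.599, 3.34 and 4.75 in the KO libraries (edgeR adjusted p 0.262, DESeq2 0.0408), and 1 Het2 member held 91 of its 95 UMIs there.

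Both remaining genes are noncoding RNAs. Neat1, a nuclear-retained RNA of paraspeckles, was at 415 and 817 CPM in the Het libraries against 263, 213 and 151 in the KO libraries (edgeR adjusted p 0.268, DESeq2 0.00162). Gm42418, which overlaps a ribosomal RNA locus, was at 5365 and 4197 CPM in the Het libraries against 2905, 2549 and 2735 in the KO libraries (edgeR adjusted p 0.177, DESeq2 0.0408), and red-cell barcodes held 51.7 and 51.1 UMIs of it each in the Het libraries against 42.98, 35.8 and 37.3 in the KO libraries.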
